A study of Rattus norvegicus with 6 samples.

Results

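Matrix proteins and integrins were examined in a rat insulinoma line, INS-1, which stands in for pancreatic β-cells. The cells came from a single clone, #4S2, with an inducible insulin 2 C96Y-GFP gene. Members were the genes whose symbol is Col, Lama, Lamb, Lamc, Itga or Itgb followed by a chain number or letter, together with a short list of named matrix genes. Of the 12603 genes measured, 67 were members. They were 30 collagens, 10 laminin chains, 12 integrin α and 6 integrin β subunits, 4 other matrix proteins (Fn1, Nid1, Nid2 and Hspg2), 3 Timps and 2 integrin-binding proteins, Itgb1bp1 and Itgb3bp, that match by the start of the symbol and are not integrins. Of the 11 genes listed by name 7 were found, and Thbs1, Fbn1, Serpinh1 and Lox were not analysed here. The 3 groups were cells given doxycycline (Dox) with 5 μM of 4μ8c, an inhibitor of the IRE1 endoribonuclease, cells given Dox alone, and untreated cells, with 48 h of treatment and 2 arrays per group. The labels give Dox at 4 μg/ml, and the methods of the study give a lower concentration. All groups carried this gene, which encodes insulin 2 with the Akita mutation fused to GFP, and were grown under the same selection drugs, so that effects of Dox itself and of misfolded proinsulin cannot be told apart. No array with 4μ8c as the sole treatment was analysed here.

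Collagens, laminins and fibronectin are large secreted proteins that are folded and assembled in the endoplasmic reticulum (ER), the compartment in which misfolded proinsulin accumulates and in which IRE1 acts as a sensor of the unfolded protein response. Laminins are trimers of an α, a β and a γ chain, and with collagen IV, nidogens (Nid1, Nid2) and perlecan (Hspg2) they form basement membranes. Integrins are receptors of 1 α and 1 β subunit that bind these ligands. In islets, β-cells bind through integrins to a basement membrane that is made largely by endothelial cells.

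Each experiment gave 1 array per group, and the deposited log2 values are centred per probeset within an experiment. A value is therefore a position relative to the other arrays of that experiment, not an expression level, and no member was compared with another by level. In experiment 1 the middle of the 3 values was 0 for every probeset, and 24 of the 67 members (35.8%, against 18.1% of all genes) had 1 and the same value on all 3 arrays. These 24 were 10 collagens, 5 laminin chains, 5 integrin α and 1 integrin β subunits, Nid1, Nid2 and Hspg2. For them only experiment 2 gave a difference, and their mean over both experiments counts experiment 1 as 0 and so lies nearer 0 than the difference of experiment 2. None of the 2285 genes of this kind passed the test in any comparison or had an unadjusted p under 0.05. In bulk samples, fewer cells of a type and less RNA per cell cannot be told apart.

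To show the sequence that lies before the genes whose mRNA passed the test, the 150 bases before the RefSeq start site (build GRCr8, 5′ to 3′ on the gene's strand) are given for the 4 of these 6 genes with an entry. Fn1 and Col25a1 had none. Capitals mark the GC box GGGCGG on either strand.
Col27a1: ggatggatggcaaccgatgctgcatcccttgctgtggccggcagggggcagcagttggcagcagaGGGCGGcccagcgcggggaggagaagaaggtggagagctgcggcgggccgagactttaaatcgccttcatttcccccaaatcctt
Col5a3: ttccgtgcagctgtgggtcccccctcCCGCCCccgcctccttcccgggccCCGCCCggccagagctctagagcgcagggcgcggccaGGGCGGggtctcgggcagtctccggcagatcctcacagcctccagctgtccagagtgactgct
Lamb1: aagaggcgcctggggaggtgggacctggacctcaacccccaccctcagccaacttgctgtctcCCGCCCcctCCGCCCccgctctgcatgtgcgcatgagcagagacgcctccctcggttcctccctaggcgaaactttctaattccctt
Col9a1: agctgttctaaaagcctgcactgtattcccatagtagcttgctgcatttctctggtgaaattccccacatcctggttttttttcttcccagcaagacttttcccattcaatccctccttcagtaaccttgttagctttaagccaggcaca
The windows lie at chr5:81662758-81662907 (+ strand, Col27a1), chr8:27625949-27626098 (- strand, Col5a3), chr6:53562946-53563095 (+ strand, Lamb1) and chr9:34081214-34081363 (+ strand, Col9a1). Col5a3 held 3 GC boxes, Lamb1 held 2, Col27a1 held 1 and Col9a1 held none. Of the 50 members with a promoter entry, 31 (62%) had a GC box in this window, against 50.4% of the 10430 measured genes with an entry. The median share of G and C was 63.3% in the members' windows and 62.7% in those of the measured genes. The letters ACGTG, a core shared by sites of XBP1 and ATF6, stood in 2 member windows (4%, Col4a5 and Lamc3), against 14.5% of measured genes. CCAAT stood in 5 (10%), against 25.9%. All motifs were sought on both strands, and a match is a description of the letters only.

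Most matrix and integrin genes lay close to their untreated value. With Dox, 51 of 67 members (76.1%) differed from untreated by less than 0.1 on the log2 scale, against 64.9% of all genes, and the median difference was -0.005, against 0.011 for all genes. Leaving out genes with equal values in experiment 1, these shares were 72.1% of 43 members and 61.5% of 10318 genes. Dox+4μ8c against untreated gave 74.6% of members and 71.3% of all genes, and Dox+4μ8c against Dox gave 74.6% and 75.1%. Without genes with equal values in experiment 1, the first comparison gave 65.1% of members and 67.5% of genes. The second then gave 67.4% and 72.8%, so in both the members' share was the lower. Tested with limma with the experiment as a term (adjusted p under 0.05 over all genes), 1 member was higher with Dox, Col5a3, where 4.42% of all genes were, and 2 were lower, Fn1 and Col27a1, where 2.01% were. In all, 3 of 67 members (4.48%) passed, against 6.43% of all genes, or 6.98% of members and 7.85% of genes without those with equal values in experiment 1. Between Dox+4μ8c and untreated, Lamb1 was higher (1.17% of all genes) and Col25a1 lower (1.13%). Between Dox+4μ8c and Dox, Lamb1 was higher (0.175%) and Col9a1 lower (1.61%). The members with an unadjusted p under 0.05 numbered 3 higher and 7 lower for Dox (11.2% and 8.44% of all genes), 3 and 7 for Dox+4μ8c against untreated (6.27% and 9.15%), and 2 and 5 for Dox+4μ8c against Dox (2.79% and 8.44%).

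Without the experiment term, Fn1 with Dox was the only one of these calls past the threshold. In that fit the shares of all genes called were 2.4% higher and 1.09% lower with Dox, 0% and 0% with Dox+4μ8c against untreated, and 0.111% and 1.02% for Dox+4μ8c against Dox. By size alone, 1 member was at least 1.5 fold higher with Dox than untreated, Timp1 (0.968% of all genes), and 1 was at least 1.5 fold lower, Fn1 (0.175%).

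**Figure D1:**
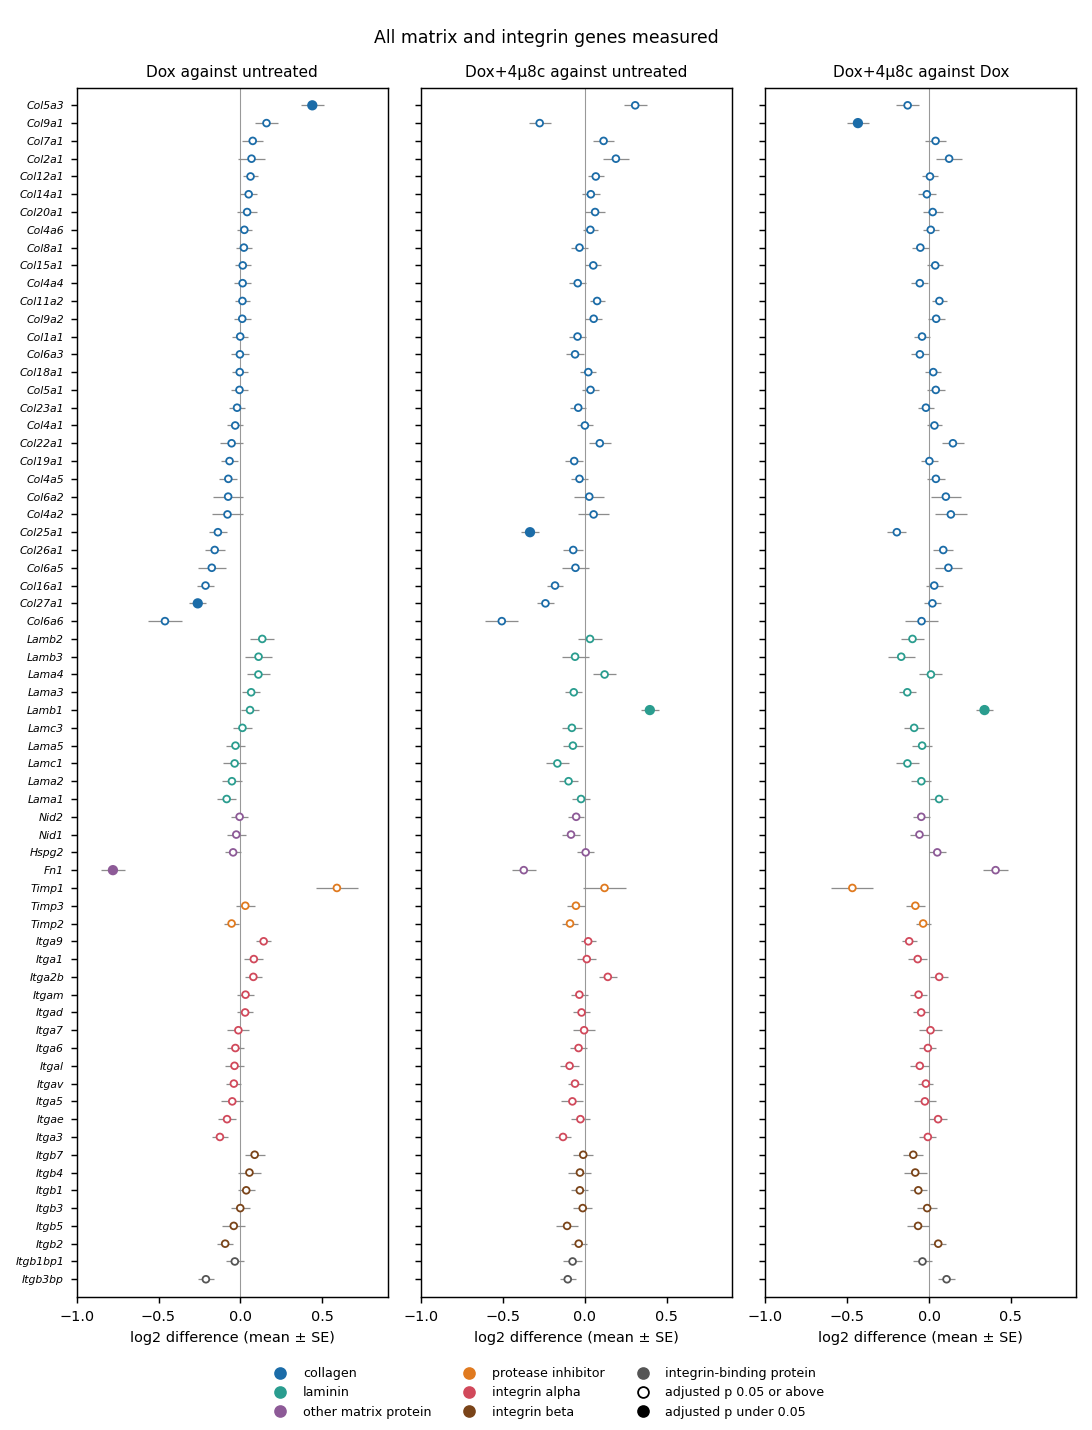
Log2 difference (mean of 2 experiments ± SE from limma) of all 67 members, grouped by family, in each comparison, with filled points where the adjusted p is under 0.05. Most points lie near 0, Fn1 is the lowest with Dox at -0.78, and none of the integrin points is filled.

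Fibronectin (Fn1), the ligand of several integrins in interstitial matrix, had the largest fall among the members with Dox. In experiment 1 the Fn1 value was 0 with Dox+4μ8c, -0.47 with Dox and 0.45 untreated. In experiment 2 it was -0.14 with Dox+4μ8c, -0.49 with Dox and 0.14 untreated. In both experiments Dox was the lowest array, untreated the highest and Dox+4μ8c lay between them. Fn1 was 1.72-fold lower with Dox than untreated (log2 difference -0.78, SE 0.07, 95% interval -0.96 to -0.60, limma adjusted p = 0.00376, and 0.0314 without the experiment term). With Dox+4μ8c it differed from untreated by -0.37 (95% interval -0.55 to -0.19, limma adjusted p = 0.0674) and from Dox by 0.41 (0.23 to 0.59, adjusted p = 0.0617), so that neither comparison passed the threshold. The difference from untreated with Dox+4μ8c was 49.2% of that with Dox in experiment 1 and 45.8% in experiment 2, on the log2 scale and against the same untreated arrays. A single probeset measured Fn1, and the same holds for Col5a3, Col27a1, Col25a1, Col9a1, Lamb1, Timp1 and Col6a6.

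**Figure D2:**
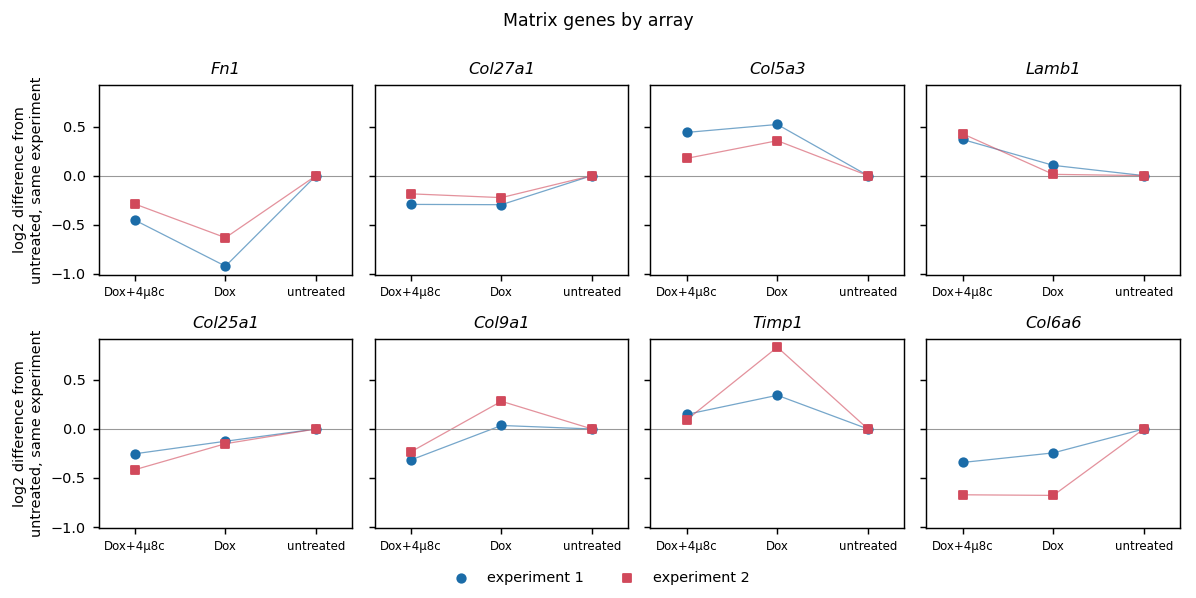
Log2 difference of each array from the untreated array of the same experiment (vertical axis) for 8 matrix genes in cells given Dox+4μ8c, Dox or nothing, with a line per experiment and untreated at 0 by construction. Fn1 is lowest with Dox in both experiments, and Timp1 with Dox reaches 0.34 in one and 0.83 in the other.

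Of 30 collagens, 1 rose and 1 fell with Dox (6.67%, against 6.43% of all genes). Col5a3, a chain of the fibrillar collagen V, was at 0 with Dox+4μ8c, 0.08 with Dox and -0.44 untreated in experiment 1. The values in experiment 2 were 0.09 with Dox+4μ8c, 0.27 with Dox and -0.09 untreated. Both treated arrays lay above untreated in each experiment, with Dox the highest. Col5a3 was higher with Dox than untreated by 0.44 (SE 0.07, limma adjusted p = 0.0192, and 0.114 without the experiment term). Without untreated replicate 1 the call was lost, calls over all genes fell in number too, and the difference was 0.33. With Dox+4μ8c the difference from untreated was 0.31, which was 84.5% of that with Dox in experiment 1 and 49.4% in experiment 2. Col5a1, another chain of collagen V, differed from untreated by -0.01 with Dox (95% interval -0.14 to 0.12).

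Col27a1, a fibrillar collagen known from cartilage, was at 0 with Dox+4μ8c, -0.0031 with Dox and 0.29 untreated in experiment 1. Experiment 2 gave -0.09 with Dox+4μ8c, -0.13 with Dox and 0.09 untreated. Untreated was the highest array in each experiment, and the treated arrays lay close to each other. Col27a1 was lower with Dox by 0.26 on the log2 scale (SE 0.05, limma adjusted p = 0.0353, and 0.14 without the experiment term). With Dox+4μ8c the mean difference was -0.24, or 92.0% of that with Dox (82.9% in experiment 2). The call was lost without either untreated array, without either Dox+4μ8c array and without Dox replicate 2. In these fits calls over all genes fell in number too, and the difference of Col27a1 with Dox ran from -0.31 to -0.22.

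Col25a1, a membrane-anchored collagen known from neurons, was lowest with Dox+4μ8c. Its values in experiment 1 were -0.13 with Dox+4μ8c, 0 with Dox and 0.13 untreated. In experiment 2 they were -0.20 with Dox+4μ8c, 0.065 with Dox and 0.22 untreated. The 3 arrays had the same order in both experiments. Between Dox+4μ8c and untreated the difference was -0.33 (SE 0.06, limma adjusted p = 0.0476, and 0.0883 without the experiment term), and between Dox and untreated it was -0.14. The call was lost without any 1 of the 2 Dox+4μ8c or 2 untreated arrays. In these fits calls over all genes fell in number too, and the difference of Col25a1 between Dox+4μ8c and untreated ran from -0.41 to -0.26.

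Col9a1, a chain of collagen IX that sits on the surface of cartilage fibrils, was also lowest with Dox+4μ8c. In experiment 1 it was at -0.32 with Dox+4μ8c, 0.04 with Dox and 0 untreated. Experiment 2 gave -0.12 with Dox+4μ8c, 0.40 with Dox and 0.12 untreated. It was lower with Dox+4μ8c than with Dox by 0.43 on the log2 scale (SE 0.07, limma adjusted p = 0.0395, and 0.26 without the experiment term). The call was lost without Dox replicate 2 or without either Dox+4μ8c array. In these fits calls over all genes fell in number too, and the difference of Col9a1 ran from -0.455 to -0.331. Col9a2, its partner chain, differed by 0.04 between Dox+4μ8c and Dox (95% interval -0.08 to 0.17), and its 3 values in experiment 1 were equal.

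Col6a6, a chain of the microfibril-forming collagen VI, was the lowest member with Dox+4μ8c, but missed the threshold. In experiment 1 it was at -0.10 with Dox+4μ8c, 0 with Dox and 0.24 untreated. In experiment 2 Col6a6 was at -0.28 with Dox+4μ8c, -0.29 with Dox and 0.39 untreated. Both treated arrays lay below untreated in each experiment, by 0.34 and 0.67 with Dox+4μ8c and by 0.24 and 0.68 with Dox. The mean difference was -0.51 with Dox+4μ8c (95% interval -0.75 to -0.26, limma adjusted p = 0.069) and -0.46 with Dox (-0.71 to -0.22, adjusted p = 0.0525). Of the other collagen VI chains, Col6a2, Col6a3 and Col6a5 did not pass either, with differences with Dox of -0.08, 0.00 and -0.17. The 2 probesets of Col6a2 went opposite ways, by -0.295 and 0.145. Col6a5 had equal values in experiment 1 and differed by -0.35 in experiment 2. The basement membrane chains Col4a1, Col4a2, Col4a4, Col4a5 and Col4a6 differed from untreated by -0.08 to 0.02 with Dox, and 4 of them had equal values in experiment 1. Between Dox+4μ8c and Dox, Col22a1 differed by 0.15 and Col2a1 by 0.12, and neither passed. The remaining collagens ranged from -0.21 (Col16a1, limma adjusted p = 0.0699) to 0.08 with Dox.

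Among the 10 laminin chains, Lamb1 rose with Dox+4μ8c and no chain passed the test with Dox. Lamb1 encodes the β chain of many basement membrane laminins. In experiment 1 Lamb1 was at 0.26 with Dox+4μ8c, 0 with Dox and -0.10 untreated. Its values in experiment 2 were 0.28 with Dox+4μ8c, -0.14 with Dox and -0.15 untreated. Dox+4μ8c was the highest array in each experiment, and Dox lay 0.10 and 0.01 above untreated. Against untreated, Lamb1 was higher with Dox+4μ8c by 0.40 (SE 0.05, limma adjusted p = 0.0254, and 0.0769 without the experiment term). Against Dox it was higher by 0.34 (SE 0.05, adjusted p = 0.042, and 0.0613 without the term). Each of these calls was lost without either untreated or either Dox+4μ8c array, and the second also without Dox replicate 2. In these fits calls over all genes fell in number too. The difference of Lamb1 then ran from 0.35 to 0.45 against untreated and from 0.279 to 0.391 against Dox. The second call was also lost when each array was centred on its median (limma adjusted p = 0.0528).

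The chains that assemble with Lamb1 did not pass. Between Dox+4μ8c and untreated, Lamc1, its usual γ partner, differed by -0.17 (95% interval -0.34 to 0.00), Lama1 by -0.02 (-0.16 to 0.11), Lama4 by 0.12 (-0.05 to 0.29) and Lama5 by -0.07 (-0.22 to 0.07). Lama2 and Lama4 had equal values in experiment 1, and in experiment 2 they differed by -0.20 and 0.24. Lama3, an α chain of epithelial laminins, differed by -0.13 between Dox+4μ8c and Dox (-0.26 to -0.0034). The other β chains, Lamb2 and Lamb3, differed by 0.03 and -0.06 between Dox+4μ8c and untreated and had equal values in experiment 1. With Dox the 10 chains ranged from -0.08 to 0.13, and 0 had an unadjusted p under 0.05. For the linker proteins of the basement membrane only experiment 2 gave a difference between Dox and untreated, which was -0.05 for Nid1, -0.01 for Nid2 and -0.09 for Hspg2. None of these passed.

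Timp1, a secreted inhibitor of matrix metalloproteinases, had the largest positive difference with Dox among the members but missed the threshold. In experiment 1 it was at 0 with Dox+4μ8c, 0.19 with Dox and -0.15 untreated. In experiment 2 it was at 0.05 with Dox+4μ8c, 0.79 with Dox and -0.05 untreated. Dox was the highest and untreated the lowest array each time, and the difference between them was 0.34 in experiment 1 and 0.83 in experiment 2. The mean was 0.59 (SE 0.13, 95% interval 0.28 to 0.90, limma adjusted p = 0.0515, and 0.132 without the experiment term). With Dox+4μ8c the difference from untreated was 0.12 (-0.19 to 0.43) and that from Dox was -0.47 (-0.78 to -0.16, adjusted p = 0.195). Dox replicate 2 had the widest values over all genes (SD 0.153, against 0.047 to 0.117 on the other arrays). Without it, Timp1 differed by 0.33 between Dox and untreated, and without Dox replicate 1 by 0.85. These fits keep 1 Dox array, so the disagreement between the Dox arrays does not count in them. Without untreated replicate 1 the difference was 0.70, and without untreated replicate 2 it was 0.48. Timp2 and Timp3 differed from untreated by -0.05 (-0.17 to 0.06) and 0.03 (-0.11 to 0.17) with Dox.

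None of the 18 integrin subunits passed the test in any of the 3 comparisons. With Dox they ranged from -0.13 to 0.14 with a median of -0.007, and their 95% intervals lay between -0.25 and 0.25. With Dox+4μ8c against untreated the range was -0.13 to 0.14 with a median of -0.029. For Dox+4μ8c against Dox it was -0.12 to 0.06 with a median of -0.037. By unadjusted p under 0.05, 1 α subunit was higher and 1 lower with Dox, 1 higher and 1 lower with Dox+4μ8c against untreated, and 1 lower with Dox+4μ8c against Dox, while 0 β subunits were. Of the 18, 6 had equal values on the arrays of experiment 1, among them Itgb1.

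The integrin β subunit shared by most matrix receptors, Itgb1, differed from untreated by -0.03 with Dox+4μ8c (95% interval -0.16 to 0.10) and by 0.04 with Dox (-0.09 to 0.16), and in experiment 2 by -0.06 and 0.07. The 2 probesets of Itgb1 went opposite ways with Dox, by -0.057 and 0.129, so their mean hides a disagreement. The fibronectin-binding partner of Itgb1, Itga5, differed by -0.05 with Dox (-0.21 to 0.11), and Itgav, which binds vitronectin and fibronectin, by -0.04 (-0.15 to 0.07). The 3 probesets of Itgav also differed in sign with Dox, at 0.056, -0.15 and -0.026. Itgb7, a leukocyte subunit, differed by 0.09 with Dox (-0.06 to 0.23), and Itga2b, known from platelets, by 0.14 with Dox+4μ8c (0.01 to 0.27). The laminin-binding Itga3 and Itga6 differed by -0.13 (-0.25 to -0.0016, limma adjusted p = 0.249) and -0.03 (-0.16 to 0.09). Itga3 lay below untreated in both experiments and both treatments, by 0.18 and 0.07 with Dox and by 0.18 and 0.09 with Dox+4μ8c. The largest positive difference was that of Itga9, a partner of Itgb1 that binds tenascin, at 0.14 with Dox (0.03 to 0.25, adjusted p = 0.155) and 0.02 with Dox+4μ8c. Itga9 was at 0 with Dox+4μ8c, 0.095 with Dox and -0.04 untreated in experiment 1, and at -0.08 with Dox+4μ8c, 0.07 with Dox and -0.08 untreated in experiment 2.

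The 2 experiments were compared by sign. With Dox, 9 members were above and 14 below untreated in both experiments, 15 had opposite signs, and 29 had no difference in experiment 1. For Dox+4μ8c against untreated these numbers were 11, 17, 9 and 30, and for Dox+4μ8c against Dox 11, 12, 12 and 32. Over all 12603 genes the numbers with Dox were 3355, 3128, 2941 and 3178. They were 3008, 3636, 2510 and 3439 for Dox+4μ8c against untreated, and 2389, 3394, 3304 and 3509 for Dox+4μ8c against Dox. Opposite signs made up 22.4% of members and 23.3% of all genes with Dox, 13.4% and 19.9% for Dox+4μ8c against untreated, and 17.9% and 26.2% for Dox+4μ8c against Dox. Genes with no difference in experiment 1 cannot have opposite signs. Without genes of equal values in experiment 1, opposite signs made up 34.9% of members and 28.5% of genes with Dox. They made up 20.9% and 24.3% for Dox+4μ8c against untreated, and 27.9% and 32% for Dox+4μ8c against Dox. The 6 genes that passed a test had the same sign in both experiments in that comparison. The test itself favours such genes, because differences of opposite sign lower the mean and widen its error. Their agreement in sign is therefore no separate check.

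**Figure D3:**
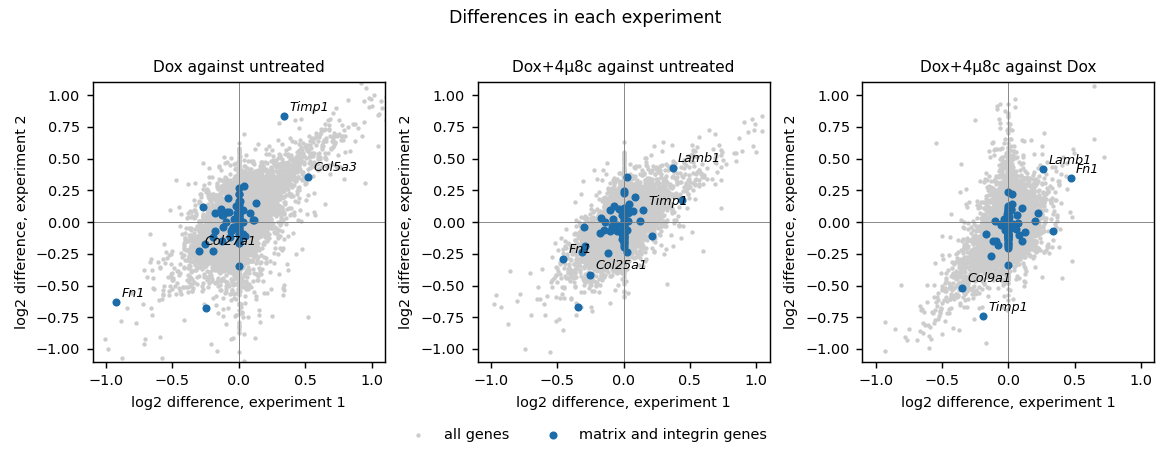
Log2 difference in experiment 1 (horizontal axis) and experiment 2 (vertical axis) for the 67 members (blue) and all genes (grey) in each comparison, with the called members, Fn1 and Timp1 named and with 34, 15 and 7 genes lying beyond the axes, which end at 1.1 in either direction. Many members lie on the vertical line at 0, where experiment 1 gave no difference.

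Collagen chains are hydroxylated and folded in the ER before secretion, and a list of genes for these enzymes, for cross-linking and for their regulators was examined beside the chains. Of 23 measured genes of this list, 3 rose with Dox and 0 fell, where 4.42% and 2.01% of all genes did, and the median difference was 0.089, against 0.011 for all genes. Ppib, the prolyl isomerase cyclophilin B, was at 0 with Dox+4μ8c, 0.30 with Dox and -0.27 untreated in experiment 1. Experiment 2 gave 0.07 with Dox+4μ8c, 0.58 with Dox and -0.07 untreated. Dox was the highest and untreated the lowest array in both, with a difference of 0.61 (SE 0.06, limma adjusted p = 0.00446). Ppib was lower with Dox+4μ8c than with Dox by 0.41 on the log2 scale (adjusted p = 0.0361, and 0.196 without the experiment term).

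P4hb, protein disulfide isomerase and the β subunit of prolyl 4-hydroxylase, rose by 0.44 with Dox (SE 0.06, limma adjusted p = 0.0106). It was lower with Dox+4μ8c than with Dox by 0.39 (adjusted p = 0.0361, and 0.0647 without the experiment term). Both proteins also serve secretory proteins other than collagen. P4ha1, the catalytic α subunit of the same hydroxylase, differed by -0.10 with Dox (95% interval -0.23 to 0.04) and was lower with Dox+4μ8c than untreated by 0.33 (adjusted p = 0.0456, and 0.0943 without the term). Creb3l1, an ER-anchored transcription factor that acts on the collagen I gene in mouse bone, was higher by 0.53 with Dox+4μ8c (adjusted p = 0.0183, and 0.179 without the term) and by 0.69 with Dox (adjusted p = 0.00342, and 0.0671). Col1a1 itself differed from untreated by -0.04 with Dox+4μ8c and by 0.00 with Dox and had equal values in experiment 1.

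**Figure D4:**
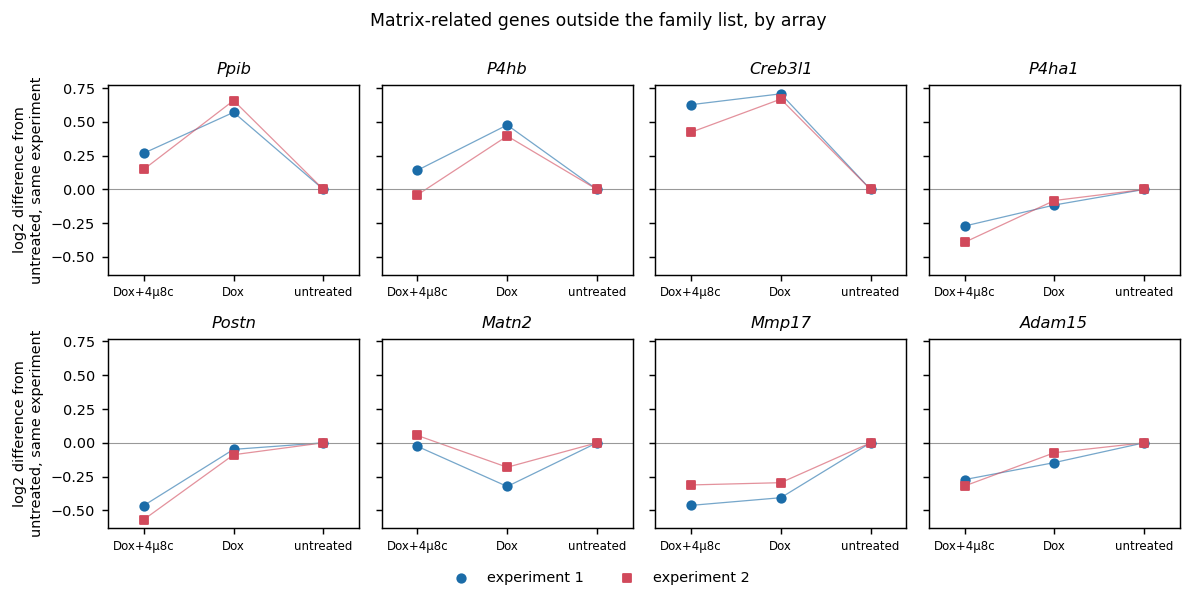
Log2 difference of each array from the untreated array of the same experiment (vertical axis) for 8 genes of the matrix-related lists in cells given Dox+4μ8c, Dox or nothing, with a line per experiment. Ppib, P4hb and Creb3l1 are highest with Dox, while Postn is lowest with Dox+4μ8c in both experiments.

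Of 27 measured matrix genes outside the family names, 1 was lower and 0 were higher in each comparison. Of all genes, 2.01% were lower with Dox, 1.13% with Dox+4μ8c against untreated and 1.61% with Dox+4μ8c against Dox. Matn2, a matrilin that links matrix filaments, fell by 0.25 with Dox (limma adjusted p = 0.0477). Postn, a matricellular protein that binds integrins, was at -0.42 with Dox+4μ8c, 0 with Dox and 0.05 untreated in experiment 1, and at -0.38 with Dox+4μ8c, 0.10 with Dox and 0.19 untreated in experiment 2. The Dox+4μ8c arrays lay apart from both others, and Postn was lower with Dox+4μ8c than untreated by 0.52 (SE 0.05, adjusted p = 0.00888, and 0.0769 without the experiment term) and than with Dox by 0.45 (adjusted p = 0.0179, and 0.0417). Of 16 proteases and inhibitors, 1 was lower with Dox (2.01% of all genes) and 2 with Dox+4μ8c against untreated (1.13%). Mmp17, a membrane-bound metalloproteinase, fell by 0.39 with Dox+4μ8c (adjusted p = 0.0283, and 0.0769 without the term) and by 0.35 with Dox (adjusted p = 0.0184). Adam15, a membrane metalloproteinase with a disintegrin domain, fell by 0.30 with Dox+4μ8c (adjusted p = 0.0489, and 0.0778).

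Of 38 adhesion and signalling partners of integrins, 1 fell with Dox (2.01% of all genes), Bcam, a receptor for laminin. Bcam alone passed between Dox+4μ8c and Dox, where it was higher by 0.65 (0.175% of all genes were higher). The list holds 1 member, Itgb1bp1. The talins, kindlins, focal adhesion kinases and other members of that list did not pass limma's test, and by unadjusted p under 0.05 none was higher and 5 were lower with Dox, Bcam included. Among 18 measured growth factor genes and mediators known to induce matrix, 0 passed in any comparison, and 1 had an unadjusted p under 0.05 (higher with Dox). Of all genes, 6.43% passed with Dox, 2.3% with Dox+4μ8c against untreated and 1.79% with Dox+4μ8c against Dox.

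Markers of other cells that make matrix did not pass limma's test in any comparison (0 of 8 for fibroblasts or stellate cells, 0 of 6 for endothelial cells and 0 of 4 for leukocytes). Of all genes, 6.43% passed with Dox, 2.3% with Dox+4μ8c against untreated and 1.79% with Dox+4μ8c against Dox. The leukocyte list holds the member Itgam, which had equal values in experiment 1. By unadjusted p under 0.05, 2 fibroblast and 1 endothelial markers were lower and 1 endothelial marker higher with Dox. For Dox+4μ8c against untreated 1 fibroblast marker was higher, and against Dox 2 fibroblast markers were higher and 1 endothelial marker lower. Of 12 β-cell markers, 5 were lower with Dox (Abcc8, Iapp, Kcnj11, Mafa and Nkx2-2, median of the list -0.204) and 2 with Dox+4μ8c against untreated (Kcnj11 and Nkx2-2). Of all genes, 2.01% and 1.13% were lower in these comparisons. Between Dox+4μ8c and Dox, Mafa was higher, 7 of the 12 were higher and 0 lower by unadjusted p under 0.05, and the median was 0.192. Of 5 markers of other islet endocrine cells, Gcg (glucagon) passed in each comparison, with differences of -2.22 between Dox and untreated, -1.36 between Dox+4μ8c and untreated and 0.86 between Dox+4μ8c and Dox. As with Fn1, Gcg was lowest with Dox and highest untreated in both experiments. The 5 β-cell markers that were lower with Dox were, like Fn1, lowest with Dox in both experiments. For Iapp in experiment 2 the treated arrays were nearly equal, at -0.0932 with Dox and -0.0922 with Dox+4μ8c. Mafa, unlike Fn1, was highest with Dox+4μ8c. Not all other β-cell markers followed, and Nkx6-1 lay above untreated with Dox in both experiments. The part of the β-cell markers and Gcg in the result of Fn1 was not tested. Because the values are centred, the presence or absence of any marker cannot be read from them. The difference between 5′ and 3′ probesets of the 4 spike-in controls, relative to untreated of the same experiment, was 0.10 and -0.26 with Dox+4μ8c and -0.16 and -0.65 with Dox, and its part in the members' results was not tested.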

How the data were processed

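The data were 6 Affymetrix 3′ IVT arrays of rat mRNA (3 groups, 2 arrays each). Per the labels the authors used RMA, without a stated version, and the deposited values are log2 intensities that are centred per probeset within an experiment. The software that centred them is not given in the sources used here. Of 25476 probesets, 100% had a median of 0 over the arrays of experiment 1 and 0.836% over those of experiment 2.

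Of the probesets, 17978 had 1 gene symbol in the platform annotation, 378 had several and 52 were controls. The values of the first were averaged per symbol, and all of the resulting 12603 genes were kept. The members had 85 probesets, with more than 1 in 16 members. The members and the gene lists were chosen with earlier results of these data known. A collagen gene excepted from the member rule is not reported here.

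A linear model with group and experiment as terms was fitted to every gene (R 4.3.3, limma 3.58.1), with moderated two-sided tests and Benjamini-Hochberg adjustment over all genes of a comparison at a threshold of 0.05. It had 2 residual degrees of freedom, to which the prior added 4.25. Intervals are 95% intervals of this fit. Replicate numbers were taken as experiments because the study describes 2 independent experiments with 1 array per group and because the centring follows the numbers. Deviations from group means correlated at r of 0.03, 0.10 and 0.03 over genes between groups, which the centring itself affects. Comparisons share arrays of their groups and are not independent. The number of arrays limits the precision, and the centring leaves no signal over background.

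Named genes were the members past the test, those listed by name, the 5 largest rises and falls of the same sign in both experiments, partner chains, and up to 4 genes per other list. Markers past the test were named after their values were seen. The fit without the experiment term, each array left out, the median of probesets, probesets one by one, arrays centred on their median, a robust prior, and 2 filters on genes were tried as alternatives. The fit was tested on simulated data. Promoter windows are from RefSeq on GRCr8. Tables and figures used Python 3.11.15, pandas 2.3.3, numpy 2.4.6 and matplotlib 3.10.9.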

Additional observations from a re-analysis of the deposited data

How the results depend on the processing

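The fall of Fn1 with Dox passed the threshold in each alternative that kept all arrays. Its limma adjusted p was 0.0314 without the experiment term, 0.00498 with arrays centred on their median and 0.00393 with a robust prior. The far smaller value of 3.64e-14 came only from leaving out genes of low range, a filter on the tested values themselves. With 1 array left out, the log2 difference of Fn1 ran from -0.89 to -0.67. The other calls did not pass in every alternative that kept all arrays. Without the experiment term (no replicate block), Dox gave 0 members higher and 1 lower (Fn1), and the other comparisons gave 0 and 0. With probesets tested one by one, Dox gave 1 lower, and both Dox+4μ8c comparisons gave 0 higher and 0 lower. Each called member has 1 probeset, so its values were the same in this fit, while the adjustment ran over 17978 probesets. With each array centred on its median, the fall of Col25a1 with Dox+4μ8c against untreated was lost (0 lower), as was the rise of Lamb1 against Dox (0 higher). Of all genes, 108 were lower in the first of these comparisons and 20 higher in the second. Without the genes whose range was below the median, a filter that uses the same values as the test, Dox gave 2 higher and 3 lower, Dox+4μ8c against untreated 2 and 3, and Dox+4μ8c against Dox 2 and 2, with Timp1, Col6a6 and Fn1 among those added. Of the 6302 genes kept, 602 were higher and 342 lower with Dox. These numbers were 210 and 232 for Dox+4μ8c against untreated, and 82 and 316 for Dox+4μ8c against Dox. Without the genes of equal values in experiment 1, chosen after seeing the data, Dox gave 2 higher, Col5a3 and Timp1, and 3 lower, Fn1, Col27a1 and Col6a6. In that fit 620 of all 10318 genes were higher with Dox and 306 lower. When 1 array was left out, the lone array of its group was assumed to vary like the others. The counts higher and lower then ran from 0 to 5 and from 1 to 4 for Dox, 0 to 2 and 0 to 5 for Dox+4μ8c against untreated, and 0 to 1 and 0 to 3 for Dox+4μ8c against Dox. The highest counts for Dox came without Dox replicate 1 and those for Dox+4μ8c against untreated without either Dox array, and without either Dox+4μ8c array no member passed in either Dox+4μ8c comparison. No direction of a called value was reversed. Leaving out untreated replicate 1 or Dox replicate 1 moved the members' median difference with Dox from -0.005 to 0.016 and 0.021. Leaving out Dox replicate 2 moved it the other way, to -0.022.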

Other observations

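Mmp17 had near-equal values in both treated groups. It was at -0.06 with Dox+4μ8c, 0 with Dox and 0.41 untreated in experiment 1, and at -0.04 with Dox+4μ8c, -0.02 with Dox and 0.27 untreated in experiment 2. P4ha1 and Adam15 were lowest with Dox+4μ8c in both experiments. P4ha1 was at -0.16 and -0.20 with Dox+4μ8c, at 0 and 0.11 with Dox and at 0.12 and 0.19 untreated. Adam15 was at -0.13 and -0.17 with Dox+4μ8c, at 0 and 0.08 with Dox and at 0.15 and 0.15 untreated.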
